A study of Mus musculus with 8 samples.

Results

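The 50 genes described here are the tumour necrosis factor (TNF) superfamily ligands and receptors, the TRAF adaptors that receptors use inside the cell, and the Tnfaip genes, named for their induction by TNF. They were taken by gene symbol from the authors' deposited table of 17441 genes, which compares Cbx2-/- with wild-type mouse embryonic fibroblasts. By role they were 13 ligands, 22 receptors, 7 TRAF adaptors and 8 Tnfaip genes. The symbol rule reads only names, so family members named otherwise, such as Fas and Eda, are given apart. A further 5 genes of the RefSeq annotation have symbols of the rule (Cd27, Edar, Ltb, Tnfrsf17 and Tnfsf14) and were not analysed here.

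TNF ligands are mostly made as trimers on the cell surface, and many are also shed. They bind receptors with cysteine-rich outer domains. Receptors with a death domain can recruit adaptors that activate caspases, while others bind TRAF proteins, which lead to the transcription factor NF-kB. Decoy receptors bind a ligand without passing on a full signal. In fibroblasts the pathway is best known for switching on chemokines, adhesion molecules and matrix proteases.

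The knockout fibroblasts carried a targeted deletion of Cbx2, a polycomb repressive complex 1 subunit that helps keep developmental genes silent. The control fibroblasts came from wild-type littermates. Both were primary cells from embryos at embryonic day 18, grown for 2 passages, and each genotype has 2 RNA libraries. Nothing in the labels says that these came from different embryos, so p-values measure the spread between these libraries, which may be technical. The 2 ATAC-seq libraries per genotype, which read chromatin accessibility, were not analysed here.

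The table holds 1 normalised value per genotype, so group values are printed without an SD, and each log2 fold change has the standard error (SE) that its p-value implies. A gene is said to have risen or fallen where the DESeq2 adjusted p of the authors' deposited table was under 0.05, adjusted over all genes. For all 6126 genes with a mean value under 50, the reads of each library could be worked back from the deposited values, and 24 members were among them. The order of the libraries is not known, so they are called a and b within a genotype. Deposited fold changes of genes with few reads are pulled toward 0, and so the deposited values of both genotypes lie closer together than their reads. Cbx2 itself had a deposited value of 29.0 in knockout against 347 in wild type (log2 fold change -3.58, SE 0.25). The deposited values summed to 18910077 in knockout and 19428299 in wild type. All 12 fibroblast markers were present, with deposited values that summed to 649069 in knockout and 719064 in wild type. Of these markers 8 fell and 1 rose in the authors' deposited table, with a median log2 fold change of -0.41.

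Of the 50 members, 6 rose and 1 fell in knockout by the DESeq2 adjusted p of the authors' deposited table. That is 14% of members called, beside 7.78% of all genes. For rises alone it is 12% of members beside 3.48% of all genes, and falls made up 4.30% of all genes. The genes that rose were the ligands Tnfsf15 and Tnfsf11, the death domain receptors Tnfrsf21, Ngfr and Tnfrsf10b, and the Tnfaip gene Tnfaip2. The single fall was the receptor Tnfrsf26. In the RefSeq annotation of GRCm38.p6 these genes lie at chr4:63724600-63745059 (Tnfsf15), chr14:78277446-78308043 (Tnfsf11), chr17:43016555-43089188 (Tnfrsf21), chr11:95568818-95587698 (Ngfr), chr14:69767472-69784411 (Tnfrsf10b), chr12:111442450-111455018 (Tnfaip2) and chr7:143607685-143627845 (Tnfrsf26). The median log2 fold change over the members was -0.03, beside 0.004 over all genes. Within 0.1 of 0 were 14 of the 50 members, beside 7078 of all 17441 genes. All 6 rises were among the 26 members with a mean value of at least 50, and the fall was among the 24 members below it. Only Tnfsf15 and Tnfrsf26 of the members had both a change of at least 2-fold and a DESeq2 adjusted p under 0.05. Of all genes 1.69% had both. These are bulk libraries, so fewer cells of a type and less RNA per cell cannot be told apart.

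**Figure D1:**
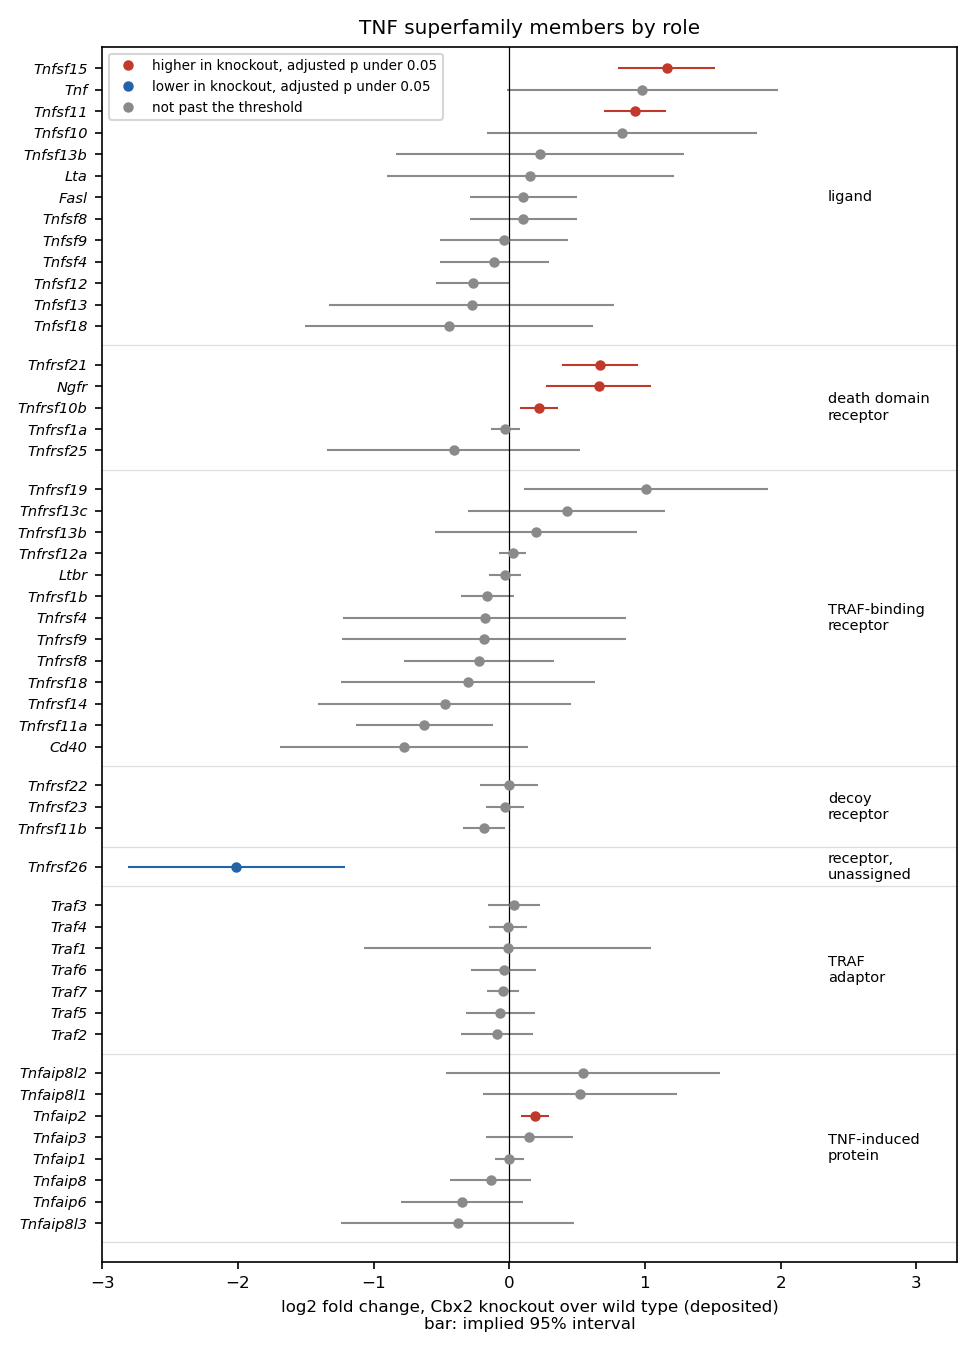
Deposited log2 fold change of knockout over wild type for the 50 members, grouped by role, with bars for the implied 95% interval. Red points rose and the blue point fell by the authors' DESeq2 adjusted p. The 7 TRAF adaptors lie between -0.09 and 0.03, while Tnfrsf26 stands alone at -2.01.

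Members spanned a wide range of levels. Per kilobase of deposited gene length, 22 of 50 members had a mean deposited value above the median of all genes (79.7). The highest was Tnfrsf12a, the receptor of the cytokine TWEAK (Tnfsf12), at 4903 per kilobase in knockout and 4821 in wild type. Tnfrsf1a, the main receptor of TNF, followed at 1445 in knockout and 1474 in wild type per kilobase. Ltbr, the lymphotoxin beta receptor, came next at 1209 in knockout and 1237 in wild type per kilobase. None of these 3 receptors passed the test, with deposited log2 fold changes of 0.02, -0.03 and -0.03 and implied SEs of 0.050, 0.055 and 0.059. The ligands of these receptors were lower. The deposited value of Tnfsf12 was 206 per kilobase in knockout and 247 in wild type, and Tnf and Lta stood at 3.11 and 5.57 per kilobase in knockout and 1.58 and 5.00 in wild type. Fasl, Tnfsf8 and Tnfsf4 had 1 read each over all 4 libraries.

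**Figure D2:**
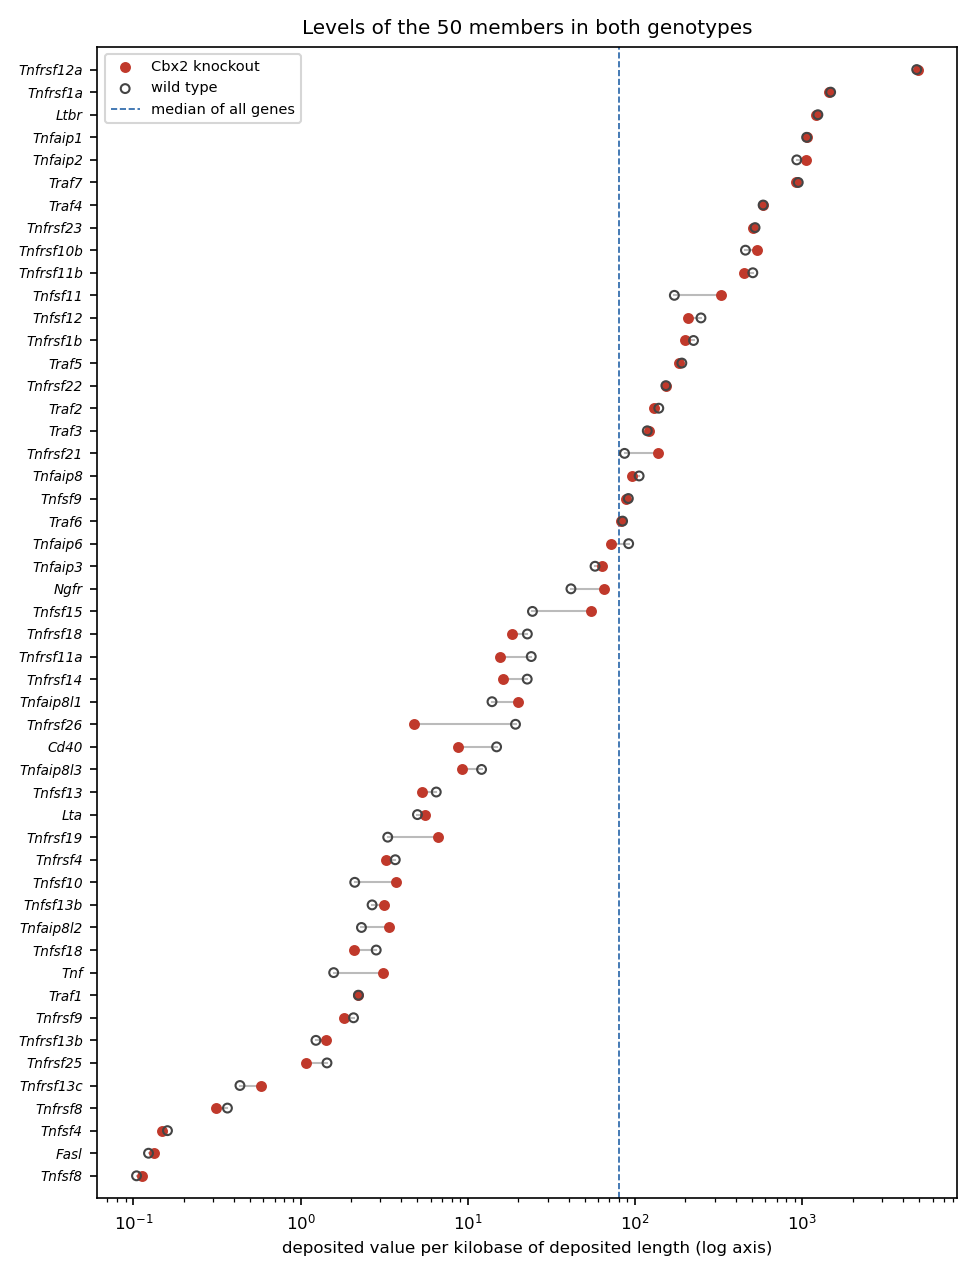
Deposited value per kilobase of deposited length for each member, on a log axis, in knockout (filled) and wild type (open), ordered by the mean of both. Tnfrsf12a, Tnfrsf1a and Ltbr lead with nearly coinciding points, and the widest gap between genotypes is that of Tnfrsf26.

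Among the 13 ligands 2 rose and none fell, and the median log2 fold change was 0.10. Tnfsf15 encodes TL1A, a ligand of the death domain receptor DR3 (Tnfrsf25). Its deposited value was 317 in knockout against 142 in wild type, a log2 fold change of 1.16 (SE 0.18, DESeq2 adjusted p 8.98e-09). This was the largest log2 fold change among the 6 rises of the authors' deposited table. Tnfsf11 encodes RANKL, the ligand that drives the formation of bone-resorbing osteoclasts. Its deposited value was 730 in knockout against 385 in wild type, a log2 fold change of 0.92 (SE 0.12, DESeq2 adjusted p 1.83e-13). The implied 95% intervals were 0.80 to 1.51 for Tnfsf15 and 0.70 to 1.15 for Tnfsf11. With 20% spread added to the SE, neither passed (DESeq2-based adjusted p 0.0775 and 0.217).

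The promoters of the 4 members with the largest deposited log2 fold changes among those that rose are shown because polycomb complexes are known to act at CpG-rich promoters, and these 4 differ in CpG content. Each sequence is the 250 bases before the RefSeq start in GRCm38.p6, 5′ to 3′ on the gene's strand, with CpG dinucleotides in capitals. They lie at chr4:63745060-63745309 (minus strand, Tnfsf15), chr14:78308044-78308293 (minus, Tnfsf11), chr17:43016305-43016554 (plus, Tnfrsf21) and chr11:95587699-95587948 (minus, Ngfr).
Tnfsf15: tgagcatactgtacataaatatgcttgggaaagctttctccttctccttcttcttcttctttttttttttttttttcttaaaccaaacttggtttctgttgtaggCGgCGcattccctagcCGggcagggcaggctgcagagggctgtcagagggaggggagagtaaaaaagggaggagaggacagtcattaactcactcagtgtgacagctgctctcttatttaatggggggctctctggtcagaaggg
Tnfsf11: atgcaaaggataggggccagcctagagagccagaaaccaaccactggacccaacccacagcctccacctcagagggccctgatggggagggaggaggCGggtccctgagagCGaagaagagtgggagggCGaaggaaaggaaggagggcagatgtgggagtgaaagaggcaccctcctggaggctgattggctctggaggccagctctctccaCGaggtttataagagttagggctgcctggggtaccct
Tnfrsf21: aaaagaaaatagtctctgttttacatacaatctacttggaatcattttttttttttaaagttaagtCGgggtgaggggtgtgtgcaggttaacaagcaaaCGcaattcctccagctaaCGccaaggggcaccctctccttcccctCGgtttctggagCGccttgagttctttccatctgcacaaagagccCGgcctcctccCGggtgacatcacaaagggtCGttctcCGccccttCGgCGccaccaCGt
Ngfr: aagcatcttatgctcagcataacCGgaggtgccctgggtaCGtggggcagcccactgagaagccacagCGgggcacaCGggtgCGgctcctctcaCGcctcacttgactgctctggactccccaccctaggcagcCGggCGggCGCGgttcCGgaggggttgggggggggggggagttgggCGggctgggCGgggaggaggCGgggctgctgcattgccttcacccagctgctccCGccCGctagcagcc
The windows of the ligands Tnfsf15 and Tnfsf11 hold 3 and 4 CpGs, against 12 for the receptor Tnfrsf21 and 16 for Ngfr. A window of Tnfaip2 held 21. RefSeq sequence was matched for 41 of 50 members in 46 windows, and Tnfrsf26 and Tnfrsf10b were not matched. Of the member windows 45.7% held 10 or more CpGs, beside 62.0% of 17087 windows of genes in the table. Among the 11 ligand windows the median was 6 CpGs, beside 13 in the 7 windows of TRAF adaptors.

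The same windows were searched on both strands for 3 motifs. The NF-kB motif was found in 15.2% of member windows, beside 9.03% of the windows of genes in the table. Of the 5 windows of members that changed, only that of Tnfaip2 held it, 24 bases before the start used for that window. The Tnfaip2 window (chr12:111442411-111442660, plus strand) reaches into the annotated span of the gene given above, so its start is not the first base of that span. The AP-1 motif TGANTCA was found in 13.0% of member windows beside 5.28%, and in none of the 5. The TATA box letters TATAAA were found in 13.0% beside 7.94%, and of the 5 only in Tnfsf11, 32 bases before the start. That match lies on the strand opposite to the gene, and the printed strand reads TTTATA there. A match describes the letters and is not evidence of binding.

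The receptors and decoy of RANKL did not rise with it. Tnfrsf11a, the signalling receptor RANK, had a deposited value of 77.8 in knockout against 120 in wild type (log2 fold change -0.63, SE 0.26) and did not pass the test (DESeq2 adjusted p 0.144). Tnfrsf11b, the secreted decoy osteoprotegerin, had 1253 in knockout against 1424 in wild type (log2 fold change -0.18, SE 0.078) and did not pass either (DESeq2 adjusted p 0.167). Per kilobase, the ratio of Tnfsf11 to Tnfrsf11b in the deposited values was 0.732 in knockout and 0.340 in wild type. This ratio was thus 2.16-fold higher in knockout, and the table gives no test of it. For TL1A, its receptor gene Tnfrsf25 had 1 and 1 reads in the knockout libraries, against 3 and 3 in the wild-type libraries.

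The other 11 ligands did not pass. Tnfsf12, which encodes TWEAK, had a deposited value of 349 in knockout against 419 in wild type (log2 fold change -0.26, SE 0.14, DESeq2 adjusted p 0.376). Tnfsf9, the 4-1BB ligand, had 109 in knockout and 112 in wild type. Both were far above the remaining ligands, whose deposited values were all under 20.

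For Tnf itself, the recovered reads show that 1 library set the deposited value. The knockout libraries had 14 and 1 reads and the wild-type libraries 1 and 0. Library a of knockout was thus high and the other 3 were at or near 0, so the genotypes overlapped in scaled reads. The deposited log2 fold change of 0.98 (SE 0.51, DESeq2 adjusted p 0.359) did not pass, and 93.3% of the knockout reads of Tnf came from library a. Without that library, 1 read was left in knockout, the same number as in wild type. Macrophages are a main source of TNF, and 12 of 21 macrophage markers rose in knockout. The 16 macrophage markers with recovered reads summed to 410 and 402 scaled reads in knockout libraries a and b, against 80.4 and 112 in the wild-type libraries. The part of macrophages in the Tnf reads was not tested.

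Tnfsf10 encodes TRAIL, a ligand that can trigger cell death. It had 16 and 26 reads in knockout against 13 and 4 in wild type, so that both knockout libraries were above both wild-type ones. Its reads were 2.32-fold higher in knockout (95% exact interval 1.29 to 4.35, counting error only), while the deposited log2 fold change was 0.83 and did not pass (DESeq2 adjusted p 0.531). Nor did it pass in limma over genes with a mean of at least 5 (log2 fold change 1.34, SE 0.47, adjusted p 0.0702). That log2 fold change was 2.09 without wild-type library a and 0.60 without wild-type library b, 1.68 without knockout library a and 1.00 without knockout library b. Lta, encoding lymphotoxin alpha, had 7 and 10 reads in knockout and 4 and 9 in wild type, which overlap. Tnfsf13b, encoding the B cell survival factor BAFF, had 6 and 6 reads in knockout and 4 and 4 in wild type. Its relative Tnfsf13, or APRIL, had 4 and 13 in knockout and 5 and 17 in wild type, and the libraries within a genotype differed more than the genotypes. Tnfsf13 overlaps Tnfsfm13 in the annotation, so their reads could have been divided.

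Of the 5 death domain receptors among the members 3 rose in the authors' deposited table, beside 3.48% of all genes, and no other receptor rose there. The death receptor gene Fas, outside the symbol rule and named after its value was seen, did not pass (DESeq2 adjusted p 0.983). No difference between receptor classes was tested. Tnfrsf21, or DR6, is a receptor studied in neurons and T cells. Its deposited value was 498 in knockout against 313 in wild type, a log2 fold change of 0.67 (SE 0.14, DESeq2 adjusted p 8.11e-05). Ngfr, the low-affinity neurotrophin receptor p75, had 222 in knockout against 141 in wild type (log2 fold change 0.66, SE 0.20, DESeq2 adjusted p 0.0132). Tnfrsf10b, the mouse TRAIL receptor and a known target of p53, rose by less, with 1700 in knockout against 1459 in wild type (log2 fold change 0.22, SE 0.073, DESeq2 adjusted p 0.0353). The remaining 2 were Tnfrsf1a and Tnfrsf25, described above. With 10% spread added to the SE, Tnfrsf21 kept its call (adjusted p 0.0414), but Ngfr (0.189) and Tnfrsf10b (1.00) did not.

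Ngfr is also a marker of neural crest and Schwann cells, and the values of other markers of those cells differed too. Of 6 such markers none rose and S100b fell, while Sox10, Erbb3 and Foxd3 (picked with their values in view) had deposited log2 fold changes of 0.57, 0.69 and 0.54. The deposited values of all 6 summed to 561 in knockout and 613 in wild type. S100b made up most of both sums, with 372 in knockout and 489 in wild type. The 4 markers of this list with recovered reads do not include S100b or Sox10. Their scaled reads summed to 134 and 123 in the knockout libraries and 68.5 and 85.5 in the wild-type libraries. The part of these cells in the rise of Ngfr was not tested. Bdnf, which encodes a neurotrophin that binds this receptor and was also picked with its values in view, had a deposited value of 1234 in knockout and 1063 in wild type and did not pass (DESeq2 adjusted p 0.102).

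Among the 13 receptors that bind TRAF proteins none passed in the authors' deposited table, and the median log2 fold change was -0.18. Tnfrsf1b, the second TNF receptor, had a deposited value of 981 in knockout and 1097 in wild type (log2 fold change -0.16, SE 0.099, DESeq2 adjusted p 0.528). Tnfrsf19, or TROY, a receptor of the developing nervous system and skin, had 28 and 33 reads in knockout against 11 and 12 in wild type. The genotypes did not overlap, and reads were 2.49-fold higher in knockout (95% exact interval 1.52 to 4.22, counting error only). In limma over the 2458 genes with a mean of at least 5 scaled reads its adjusted p was under 0.05 (log2 fold change 1.28, SE 0.33, adjusted p 0.0154). In that fit 8.42% of genes were higher and 4.03% lower. In the authors' deposited table Tnfrsf19 did not pass (log2 fold change 1.01, DESeq2 adjusted p 0.231), nor did it in limma without any 1 of the 4 libraries (adjusted p 0.0765 to 0.231). The log2 fold change in these 4 fits lay between 1.16 and 1.40, and those without a wild-type library called 0 genes in all.

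Cd40, a receptor best known on B cells and macrophages, had 13 and 14 reads in knockout against 33 and 19 in wild type. Its 2 knockout libraries were below both wild-type ones, and reads in knockout were 0.488 of those in wild type (95% exact interval 0.295 to 0.792, counting error only). It passed neither in the authors' deposited table (DESeq2 adjusted p 0.509) nor in limma over genes with a mean of at least 5 (adjusted p 0.0807). Tnfrsf14, or HVEM, had 12 and 16 reads in knockout against 19 and 22 in wild type. Tnfrsf18, or GITR, had 22 and 11 in knockout and 17 and 24 in wild type, which overlap. The lymphocyte receptors Tnfrsf4, Tnfrsf8, Tnfrsf9, Tnfrsf13b and Tnfrsf13c had at most 5 reads in any library. Of 12 lymphocyte markers 4 were listed, none rose or fell, and their scaled reads summed to 16.4 and 19.4 in knockout against 8.94 and 9.62 in wild type.

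**Figure D3:**
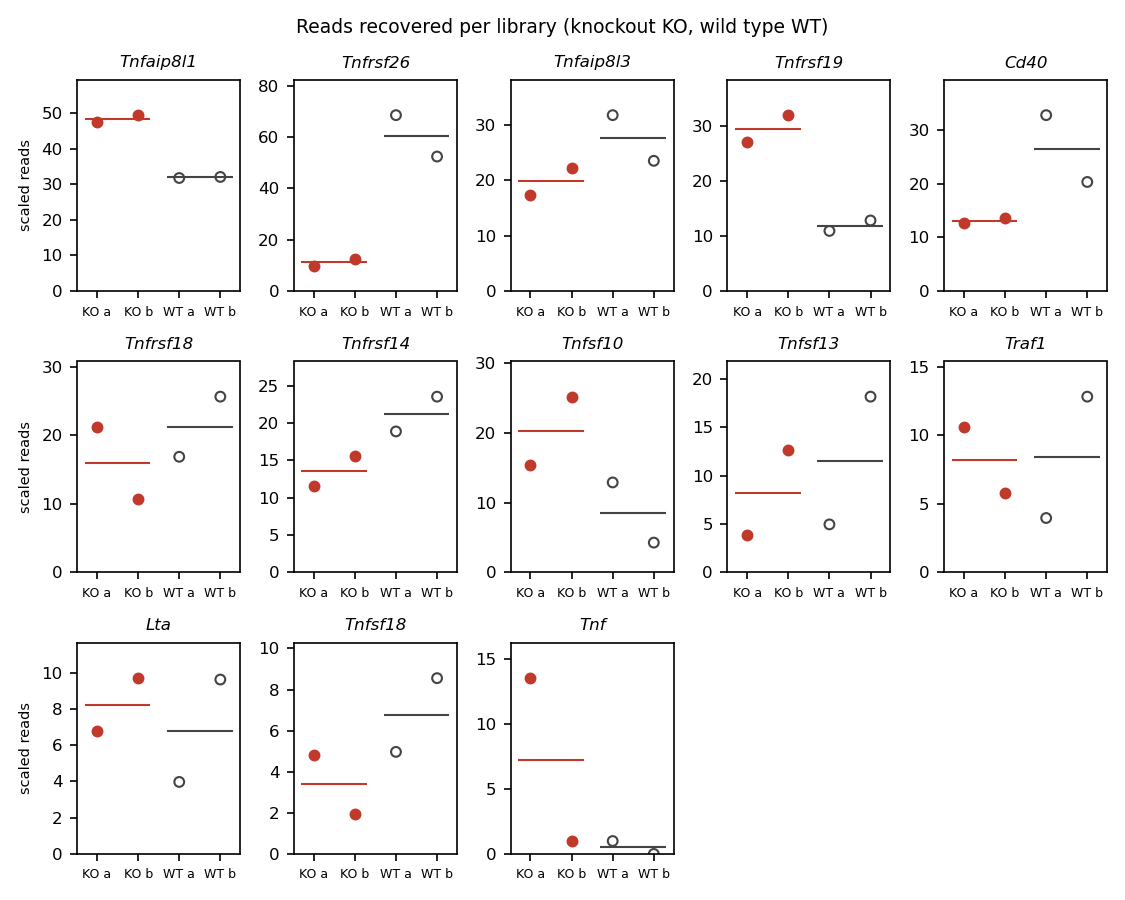
Scaled reads per library for the 12 members with a mean of 5 to 50, and for Tnf, with lines at the genotype means. Knockout libraries (KO) are filled and wild-type libraries (WT) are open. Tnfrsf26 is low and Tnfrsf19 high in both knockout libraries, whereas the Tnf mean rests on library a.

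Over the 12 members with a mean of at least 5 recovered reads, both knockout libraries were above both wild-type ones in 3 and below them in 5. That is 25.0% and 41.7% of these members, beside 34.1% and 20.1% of the 2458 genes with the same minimum. Those above were Tnfaip8l1, Tnfrsf19 and Tnfsf10, and those below were Cd40, Tnfaip8l3, Tnfrsf14, Tnfrsf26 and Tnfsf18.

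The largest deposited log2 fold change among the members, in either direction, was the fall of Tnfrsf26, a receptor gene on chromosome 7 next to the TRAIL decoy receptor genes Tnfrsf22 and Tnfrsf23. It had 10 and 13 reads in the knockout libraries against 69 and 49 in the wild-type libraries. All reads considered, knockout had 0.183 of the wild-type level (95% exact interval 0.112 to 0.288, counting error only), a 5.45-fold fall. The authors' deposited table, which pulls such changes toward 0, has 14.2 in knockout against 57.4 in wild type (log2 fold change -2.01, SE 0.41, DESeq2 adjusted p 2.94e-05). In limma over genes with a mean of at least 5 its log2 fold change was -2.39 (SE 0.30, adjusted p 3.52e-05). It still passed there without either knockout library (adjusted p 0.00173 and 0.000215). Without wild-type library a or b it did not (0.218 and 0.231), in fits where limma called 0 genes in all. The log2 fold change in these 4 fits lay between -2.58 and -2.20.

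The neighbours of Tnfrsf26 did not fall with it. Tnfrsf22 starts 6963 bases beyond the end of Tnfrsf26 in the RefSeq annotation of GRCm38.p6 and had a deposited value of 640 in knockout and 641 in wild type (log2 fold change -0.001, SE 0.11). Tnfrsf23 had 1682 in knockout and 1718 in wild type (log2 fold change -0.03, SE 0.072). On the other side Cars, a tRNA synthetase gene, rose slightly, with 2470 in knockout against 2070 in wild type (log2 fold change 0.26, DESeq2 adjusted p 0.00375). Nap1l4, Phlda2, Slc22a18, Osbpl5 and Mrgpre, the other tested genes within 4 places, did not pass, with log2 fold changes between -0.19 and 0.04. The 3 receptor genes are related copies between which reads could have been divided. The Tnfrsf26 difference of 43.1 equals 6.74% of the knockout value of Tnfrsf22 and 2.57% of that of Tnfrsf23, and whether reads moved between them was not tested.

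**Figure D4:**
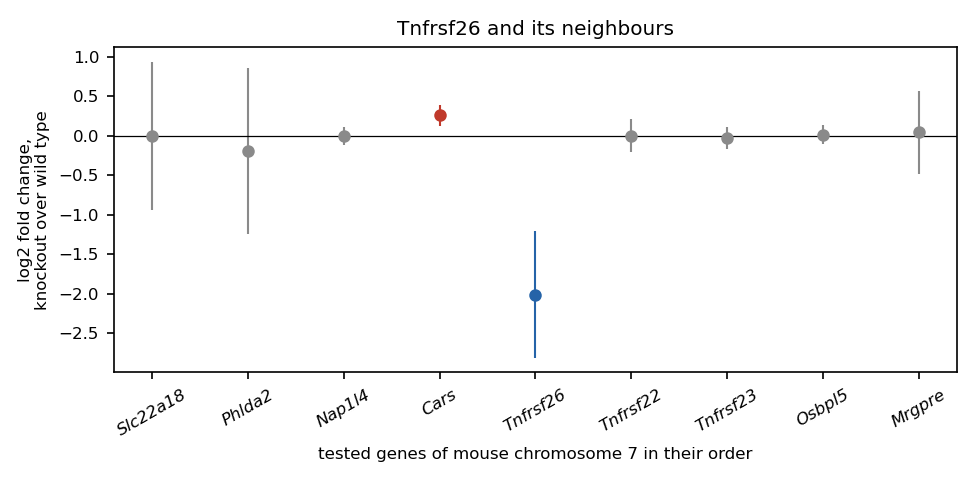
Deposited log2 fold change of Tnfrsf26 and of the 4 tested genes on each side of it on chromosome 7, in their order, with bars for the implied 95% interval. Tnfrsf26 is at -2.01, Tnfrsf22 and Tnfrsf23 lie at 0, and Cars is slightly raised.

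The genes next to the members that rose did not pass. For Tnfsf15 these were Tmem268 (log2 fold change 0.01) and Tnfsf8, a ligand gene with 1 read in all. For Tnfsf11 they were Epsti1 (0.14) and Akap11 (0.18, SE 0.067, DESeq2 adjusted p 0.0734). For Tnfrsf21 they were Cd2ap (-0.06) and E130008D07Rik (0.10, 1 read in all). For Tnfrsf10b they were 4930480K23Rik (-0.30) and Rhobtb2 (0.13), and for Ngfr Nxph3 (0.18) and Phb (-0.03). On either side of Tnfaip2 lay Exoc3l4 (0.47, DESeq2 adjusted p 0.374) and Gm266 (-0.02). All are values of the authors' deposited table, for the nearest tested gene on each side. Some members share bases with another annotated gene: Tnfsf15 with the lncRNA gene Gm42294, Tnfrsf12a with Hcfc1r1, Traf7 with Caskin1, and Tnfsf12 with Tnfsfm13. Whether reads were assigned by strand is not stated, so reads could have been divided there too.

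The TRAF adaptors varied least. None of the 7 passed, and their deposited log2 fold changes lay between -0.09 and 0.03. Traf7 and Traf4 had the highest deposited values per kilobase, at 917 and 578 in knockout and 944 and 582 in wild type. Traf2, Traf5 and Traf6, which link receptors to NF-kB and stress kinases, had deposited values of 396, 409 and 496 in knockout and 422, 428 and 510 in wild type. Traf3, which restrains the alternative NF-kB branch, had 865 in knockout and 844 in wild type (log2 fold change 0.03, SE 0.097). The implied 95% interval of Traf2 was -0.35 to 0.17, and that of Traf6 was -0.28 to 0.20, which leaves room for small changes. Traf1, itself a gene that NF-kB induces, had 11 and 6 reads in knockout and 4 and 12 in wild type, which overlap.

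Of the 8 Tnfaip genes 1 rose. Tnfaip2, a TNF-induced gene linked to membrane protrusions, had a deposited value of 3783 in knockout against 3322 in wild type, a 13.9% difference (log2 fold change 0.19, SE 0.053, DESeq2 adjusted p 0.00718). With 10% spread added to the SE it did not pass (adjusted p 1.00). Tnfaip3, the ubiquitin-editing NF-kB inhibitor A20, had 283 in knockout and 256 in wild type (log2 fold change 0.15, SE 0.16). Tnfaip6, a hyaluronan-binding protein of inflamed matrix, had 115 in knockout and 146 in wild type (log2 fold change -0.35, SE 0.23). Neither passed. Tnfaip1 had 3922 in both genotypes. Among the Tnfaip8 relatives, lipid-binding proteins, Tnfaip8l1 had 49 and 51 reads in knockout against 32 and 30 in wild type. Its reads were 1.52-fold higher without overlap (95% exact interval 1.09 to 2.12, counting error only), and it did not pass in limma over genes with a mean of at least 5 (adjusted p 0.0912). Tnfaip8l1 overlaps Mydgf in the annotation, so their reads could have been divided. Tnfaip8l3 had 18 and 23 reads in knockout against 32 and 22 in wild type, and Tnfaip8 had a deposited value of 318 in knockout and 350 in wild type.

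Further down the pathway, signalling genes were read as 3 short lists. Beside them, 7.78% of all genes were called, a share at which lists of this size hold few calls. Of all 17441 genes, 2548 had an unadjusted DESeq2 p under 0.05. None of 13 NF-kB subunits and inhibitors passed, and 3 had an unadjusted DESeq2 p under 0.05. Of 22 kinases and ubiquitin factors 1 rose, the deubiquitinase Cyld, a brake on NF-kB signalling, with a deposited value of 918 in knockout against 730 in wild type (log2 fold change 0.33, DESeq2 adjusted p 0.0128). None of 13 death signalling genes passed, and 1 had an unadjusted DESeq2 p under 0.05. The median log2 fold changes of these 3 lists were 0.11, 0.001 and 0.04. Of 9 family members and partners outside the symbol rule none passed, and 1 had an unadjusted DESeq2 p under 0.05. The death receptor gene Fas, named after its value was seen, had 181 in knockout and 186 in wild type.

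Among genes that NF-kB can induce, falls outnumbered rises. Of 24 such genes 8 fell and 1 rose in the authors' deposited table, beside 4.30% of all genes lower and 3.48% higher, and the median log2 fold change was -0.09. The neutrophil chemokine genes Cxcl1 and Cxcl5 fell, to 142 and 218 in knockout against 312 and 541 in wild type (log2 fold changes -1.13 and -1.31). The matrix protease gene Mmp3 fell to 72.6 in knockout against 180 in wild type (-1.31). Csf1, the macrophage growth factor, fell by 0.25 on the log2 scale. The gene that rose was Ier3, an early response gene, named after its value was seen (log2 fold change 0.26). Several of these genes are also controlled by other factors, so the list does not isolate NF-kB.

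**Figure D5:**
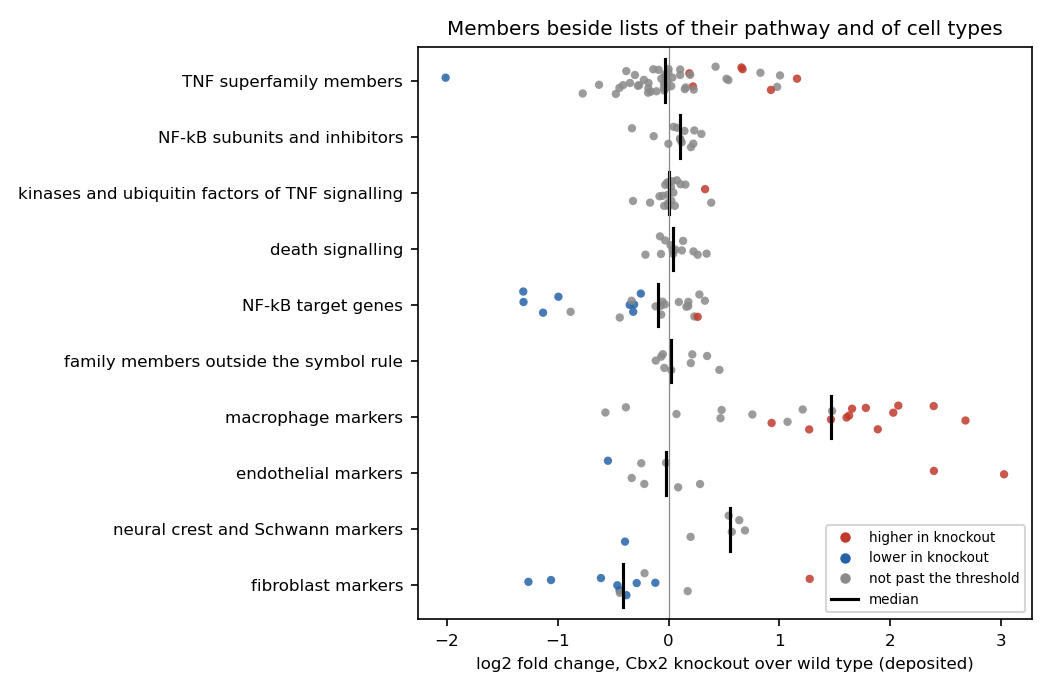
Deposited log2 fold change of each member and of each gene of 9 lists, with the list median as a black bar. Red points rose and blue points fell in knockout. The signalling lists lie close to 0, the NF-kB target list extends to -1.31, and the macrophage list has a median of 1.47.

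Markers of other cell types differed between the genotypes too. Of 21 macrophage markers 12 rose and none fell, the median log2 fold change was 1.47, and the deposited values summed to 2128 in knockout against 745 in wild type. None of the 21 was at 0 in either genotype, and the leading marker Lyz2 had 947 in knockout against 148 in wild type. Endothelial cells are a known source of TL1A. Of 9 endothelial markers 2 rose and 1 fell, the median log2 fold change was -0.02, and the deposited values summed to 1122 in knockout and 797 in wild type. Over the 4 endothelial markers with recovered reads, the genotypes overlapped. Their scaled reads summed to 13.5 and 21.3 in the knockout libraries and 11.9 and 17.1 in the wild-type libraries. Esam rose to 290 in knockout against 35.6 in wild type (log2 fold change 3.03), and Cdh5 to 324 in knockout against 61.6 in wild type (2.40). Flt1 fell to 369 in knockout against 540 in wild type (-0.55). Epithelial markers summed to 94.1 in knockout against 369 in wild type, with Krt8 and Krt18 falling. The part of these cell types in the changes of Tnfsf15, Tnfaip2 and the other members was not tested.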

How the data were processed

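Per the labels' protocols, each RNA library took 200000 cells and about 4.62 Gb of DNBseq reads. The authors deposited 1 table, and its expression columns hold a normalised signal per genotype. HISAT2, Bowtie2, RSEM and DESeq2 with mm10 were used per the submitters' processing notes, with neither roles nor versions given in the sources used here. The deposited log2 fold changes are knockout over wild type, and equal the log2 ratio of both columns to within 9.13e-09. The deposited p-value and adjusted p columns are the authors' DESeq2 comparison, and no library values were given for a test of its own. Standard errors were implied from fold change and p.

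Averaged over both columns, a value adds up whole reads, each library having its own step. Exactly 1 set of reads matched within 6e-09 for each of the 6126 genes whose mean is under 50. Size factors were 1.03 and 1.03 in knockout and 1.01 and 0.935 in wild type. Shifted decoy values found a match in 0% (means of 0 to 15), 1.00% (15 to 30) and 2.67% (30 to 50). Replicate libraries were counted separately, since their reads differed by more than counting error (mean chi-square of 1.28 over 1847 genes in knockout and 1.25 over 1597 genes in wild type). The reads were tested with limma 3.58.1 in R 4.3.3 on log2(scaled reads + 0.5) with a variance trend and Benjamini-Hochberg adjustment. Simulated data held changes of a single large size, planted in genes with a mean above 5. On these data the limma fit failed over all 6126 genes and worked over the 2458 genes with a mean of at least 5. The latter is therefore quoted, and how often it finds smaller changes was not simulated. Intervals of read ratios are exact (Clopper-Pearson) and cover counting error only.

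A count model had been planned only for a table of counts per library and was not run. Genes were matched by identifier to RefSeq GRCm38.p6 (17400 of 17441, and all 50 members), which gave positions and promoter sequences. The members and gene lists were chosen with earlier results of these data known. Genes named from a list are its changed genes, at most 4 with the smallest adjusted p, and exceptions are marked. Alternatives were thresholds, filters, added spread, size factors, pseudocount and left-out libraries. Values of some single genes of the lists are not reported here.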

Additional observations from a re-analysis of the deposited data

How the results depend on the processing

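The 6 rises and the fall of Tnfrsf26 kept their counts at an adjusted p of 0.1, and 4 rises and that fall passed at 0.01. Requiring a 2-fold change left 1 rise. Rises numbered 3 with 10% added spread and 0 with 20%, where Tnfrsf26 still passed (adjusted p 0.0121). Calls over all genes changed as well, from 1357 in the main setting to 1624 at 0.1 and 971 at 0.01. The 2-fold requirement left 294 calls over all genes, 10% added spread 425 and 20% added spread 125. Of the 8721 genes whose mean value reached the median of 230.3, 1153 were called. Among the 21 members there, 4 rises and 0 falls were left, since Tnfrsf26, Tnfsf15 and Ngfr have lower means and were not tested. By limma on recovered reads over all genes, 0 members passed in either direction, against 3 higher and 3 lower at an unadjusted p under 0.05. Limiting the fit to means of at least 5 gave 1 higher and 1 lower. Leaving out 1 library gave 0 to 3 higher and 0 to 1 lower members, and those called over all genes had at most 4 reads in total. With the minimum of 5, chosen after the data were seen for left-out libraries, it gave 0 higher and 0 to 1 lower. A lone library of a genotype is there assumed to vary like the other genotype. Over all genes, a pseudocount of 2 and no size factors also gave 0 calls, and neither was run with the minimum of 5. No paired analysis was possible because the deposited columns carry no replicate numbers, and for the same reason the authors' test could not be repeated without a library. Depth limits the 24 members with a mean under 50, where a change that misses the threshold is not shown to be absent.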
